A study of Mus musculus with 18 samples.

Results

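The CD300 genes described here are Cd300a, Cd300lb, Cd300ld, Cd300lf and Cd300lg, 5 of the 30583 genes with counts in the series. They were chosen from earlier results of these same data, in which Cd300lf stood out at 6 h and 24 h against sham. The values of the 5 genes in those contrasts are therefore given as a description, with no p. The contrasts of 10 min, 1 h and 72 h with sham use the same sham libraries. Those of 24 h with 6 h and of 72 h with 24 h use the same 6 h and 24 h libraries. The p-values of all these contrasts are therefore not independent of that choice. RNA came from the hearts of 18 male C57BL/6JR mice aged 12 weeks, 3 in each of 6 groups. In 5 groups the left anterior descending coronary artery was tied, which causes a myocardial infarction (MI), and tissue was taken 10 min later or 1, 6, 24 or 72 h later. The sham group (0 h) had the operation with the suture passed and no ligation, and mice had pentobarbital for the operation and isoflurane before they were killed. Each library came from 1 mouse and is whole tissue of the infarcted left ventricle by the protocol, although the labels also name cardiomyocytes as the cell type.

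CD300 proteins are surface receptors with 1 immunoglobulin-like domain, found mostly on myeloid cells, and several of them bind lipids that dying cells expose, such as phosphatidylserine. They come as paired receptors. Inhibitory members carry tyrosine motifs (ITIMs) in a long tail that recruit phosphatases, and activating members have a short tail and signal through adaptor proteins with an activating motif (ITAM). After an infarction, neutrophils and then monocytes and macrophages enter the damaged muscle and clear dead cells.

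By role, Cd300a and Cd300lf are the inhibitory receptors of the group. Cd300lb pairs with the adaptor encoded by Tyrobp, and Cd300ld pairs with the Fc receptor gamma chain encoded by Fcer1g; both are activating. Cd300lg differs from them, being known as an endothelial protein of capillaries that takes part in lymphocyte adhesion. All 5 lie on mouse chromosome 11, in GRCm38 coordinates of GENCODE M21. Cd300a (ENSMUSG00000034652) spans 114890041 to 114904654 on the plus strand, Cd300lb (ENSMUSG00000063193) 114922781 to 114934386 on the minus strand, and Cd300ld (ENSMUSG00000034641) 114982274 to 114989922 on the minus strand. Cd300lf (ENSMUSG00000047798) spans 115116214 to 115133992 on the minus strand, within the span of Rab37 on the plus strand, with 0 shared exon bases. Cd300lg (ENSMUSG00000017309) lies apart from this cluster, at 102041509 to 102055620 on the plus strand.

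The 4 clustered genes all stood higher than sham at 72 h, so the 100 bases before each start site are shown, from RefSeq (GRCm38.p6). They are written 5′ to 3′ on the gene's own strand, and capitals mark the PU box GAGGAA, bound by ETS-family factors of myeloid cells, which reads as its reverse complement here. The windows are chr11:114889941-114890040 for Cd300a, chr11:114934372-114934471 for Cd300lb, chr11:114989887-114989986 for Cd300ld and chr11:115133993-115134092 for Cd300lf.
Cd300a: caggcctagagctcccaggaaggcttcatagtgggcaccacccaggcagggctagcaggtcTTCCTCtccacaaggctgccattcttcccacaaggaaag
Cd300lb: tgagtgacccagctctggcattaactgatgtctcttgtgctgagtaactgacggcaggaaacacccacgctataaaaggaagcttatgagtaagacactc
Cd300ld: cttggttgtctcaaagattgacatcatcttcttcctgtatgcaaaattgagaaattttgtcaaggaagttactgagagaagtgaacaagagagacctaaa
Cd300lf: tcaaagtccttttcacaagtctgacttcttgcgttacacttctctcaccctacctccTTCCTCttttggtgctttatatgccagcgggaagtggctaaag
Both inhibitory receptors held the PU box, 39 bases before the start in Cd300a and 43 in Cd300lf, and neither activating receptor did. The RefSeq starts of Cd300lb and Cd300ld lie inside the GENCODE spans given above, so part of their windows falls within those spans. The windows of Cd300a and Cd300lf end where their spans begin, so the windows compared are not placed alike. Of 32851 promoters in the table, 9.8% hold it in a window of this length, on either strand. The C/EBP motif TTNNGNAA was found in Cd300ld and Cd300lf (14.9% of promoters), the NF-kB motif (GGG, any 5 bases, CC) in Cd300a and Cd300lb (27.2%), and TATAAA in Cd300lb and Cd300lf (5.6%), each searched on both strands. These matches describe the letters only, and no motif was shared by all 4 genes. Cd300lg was not matched in the table.

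Levels are given as CPM (counts per M of the library total, where M is mega, with totals scaled by TMM) and changes as log2 fold changes from an edgeR quasi-likelihood model with their standard errors (SE). A gene was called when its p, adjusted over the 16311 genes tested, was under 0.05. All 5 members were among the genes tested. Libraries held 18.2 to 25.1 M counts. All contrasts with sham share its 3 libraries. The summed neutrophil markers separated libraries of 1 group: replicate 1 stood at 1018 CPM at 6 h, beside 462 and 287, and replicate 3 at 1084 CPM at 24 h, beside 320 and 113. These 2 libraries carry the highest Cd300lf values as well. For several results that rest on them, the values without them or of each library are therefore given too. Because this is whole tissue, fewer cells of a type and less RNA per cell cannot be told apart.

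At 72 h all 5 members were called against sham, 4 higher and 1 lower, where 66.4% of all genes tested were called in either direction (34.2% higher, 32.2% lower). The 3 libraries at 72 h did not overlap the 3 sham libraries in any member. Here and below, the share of all genes that separate in this way is not given, so separation is a description only. The 4 clustered genes each held between 22.4 and 35.3 CPM in every 72 h library, where their sham libraries had held from 0 counts to 4.84 CPM. The plot of levels by library shows the 4 rising patterns and the falling one.

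**Figure D1:**
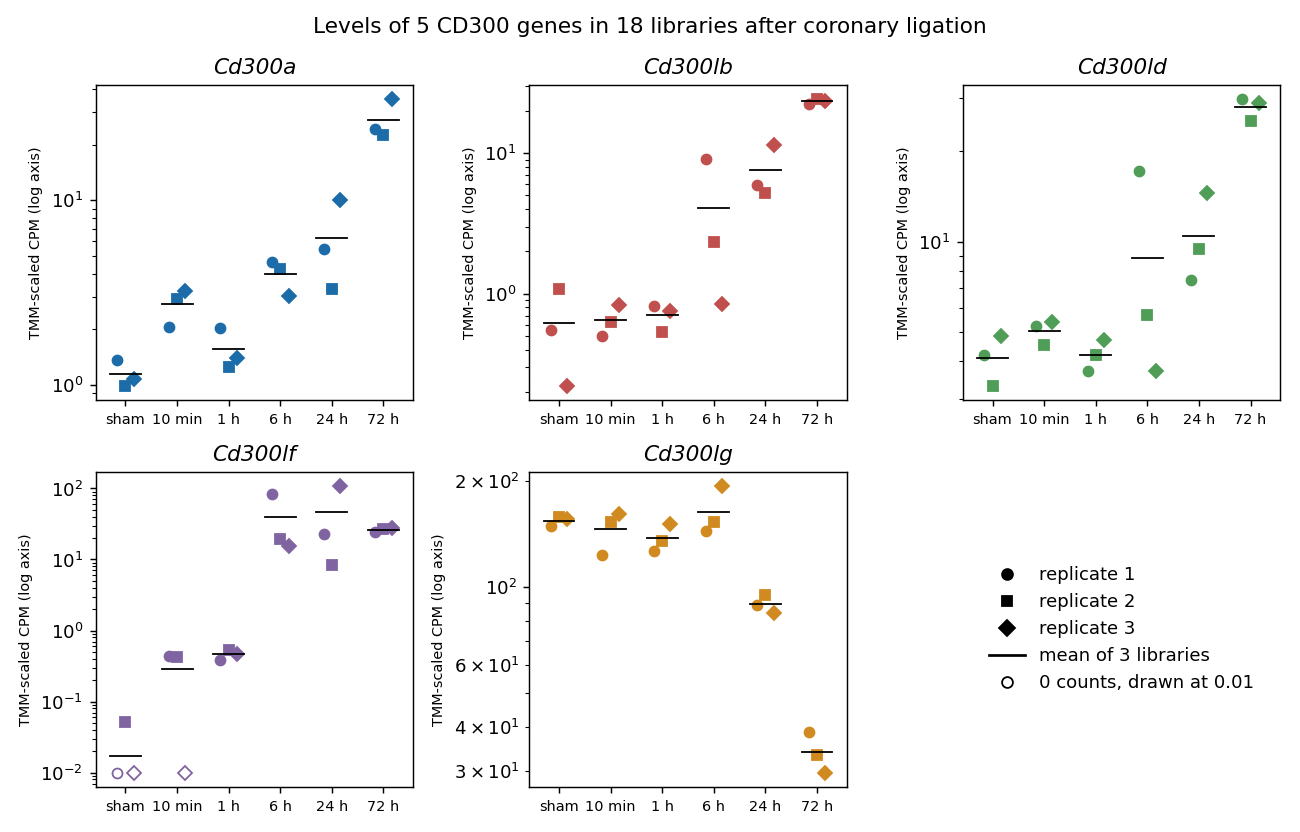
TMM-scaled CPM (log axis) of the 5 CD300 genes in each of 18 libraries, by group; symbols give the replicate number, lines the mean of 3 libraries and open symbols libraries with 0 counts. Cd300lf reached its highest values in replicate 1 at 6 h (82.9 CPM) and replicate 3 at 24 h (108 CPM), and Cd300lg fell to 33.9 CPM at 72 h.

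The inhibitory receptor Cd300a was highest at 72 h, and its 10 min and 1 h values are given in the next paragraph. Its 3 sham libraries held 1.36, 0.985 and 1.07 CPM, the 6 h libraries 4.65, 4.26 and 3.04 CPM, the 24 h libraries 5.44, 3.29 and 10.1 CPM, and the 72 h libraries 24.2, 22.5 and 35.3 CPM. Every 6 h, 24 h and 72 h library lay above every sham library, the 6 h and 24 h libraries overlapped, and the 72 h libraries stood clear of all others. The mean went from 1.14 ± 0.20 CPM in sham (SD, n = 3) to 27.3 ± 6.96 CPM at 72 h (log2 change of 4.58, SE of 0.36, edgeR adjusted p = 1.132e-08). It rose from 24 h to 72 h by 2.14 on the log2 scale (SE 0.30, edgeR adjusted p = 1.803e-05). From 6 h to 24 h the change was 0.64 (SE 0.32, edgeR adjusted p = 0.1525). That change was called under scaling by library totals (0.93, edgeR adjusted p = 0.02831) and without replicate 2 at 24 h (0.95, edgeR adjusted p = 0.01992). Library totals moved the all-gene median of that contrast from 0.02 to 0.33, and 88.0% of the genes then called were higher. The rise in the mean rested on replicate 3 at 24 h. The 24 h mean of 6.26 CPM was 4.36 CPM without it, beside 3.98 CPM at 6 h.

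At 10 min 1 of 5 members, Cd300a, did not overlap sham, and it is described here for that reason. The share of all genes that separate so is not given. Its libraries then held 2.05, 2.90 and 3.24 CPM (33, 69 and 58 counts), all above the sham libraries (27, 19 and 24 counts), and at 1 h they held 2.03, 1.24 and 1.40 CPM. The 10 min libraries all lay above the 1 h libraries too, and the 1 h libraries overlapped sham. The 10 min difference was not called (log2 change of 1.27, SE of 0.39, edgeR adjusted p = 0.4215), in a contrast where 0 of 5 members and 0.0736% of genes tested were called; it was called in a fit of those 6 libraries alone (1.26, edgeR adjusted p = 0.01603). In that fit 360 of 14510 genes were called, against 12 of 16311 in the model of all 18 libraries. The summed monocyte and macrophage markers were 400 to 440 CPM at 10 min and 349 to 407 CPM in sham. The summed neutrophil markers were 8.66 to 29.0 CPM at 10 min (5.51 to 7.83 in sham; median log2 change 1.77) and the summed lymphocyte markers 6.10 to 7.43 CPM (3.11 to 4.45 in sham; median 1.16). Neither sum overlapped sham, 0 markers of either list were called, and their part in the Cd300a difference was not tested. In order of mean level, Cd300a was lowest in sham, then 1 h, 10 min, 6 h, 24 h and 72 h, and neighbours overlapped except 1 h with 10 min and 24 h with 72 h.

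Cd300lf, the other inhibitory receptor, which also serves as the entry receptor of murine norovirus, was almost absent early. It had 0, 1 and 0 counts in sham, 7, 10 and 0 counts at 10 min, and 8, 9 and 8 counts at 1 h. All 3 libraries at 1 h lay above sham, and those at 10 min overlapped it; neither contrast was called (edgeR adjusted p = 0.9301 at 10 min and 0.9899 at 1 h). The summed neutrophil markers were 20.2 to 30.0 CPM at 1 h and 5.51 to 7.83 CPM in sham, and their part in the 1 h difference was not tested. At 1 h 0 of 5 members were called, where 0.294% of genes tested were.

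From 6 h on, Cd300lf was abundant and uneven. The 6 h libraries held 1391, 408 and 290 counts (82.9, 19.5 and 15.4 CPM), the 24 h libraries 530, 233 and 2101 counts (22.9, 8.24 and 108 CPM), and the 72 h libraries 763, 872 and 875 counts (24.1, 26.6 and 27.8 CPM). The 6 h, 24 h and 72 h groups all overlapped one another, while all 9 libraries lay far above every earlier one. With 1 count in all of sham, the pooled ratio to sham has wide limits, which cover counting error only: 2279 at 6 h (95% exact interval 409 to 90040), 2490 at 24 h (447 to 98370) and 1610 at 72 h (289 to 63630). Without replicate 1 the 6 h ratio was 1083 (194 to 42850), and without replicate 3 that of 24 h was 913 (163 to 36120). At 72 h the edgeR adjusted p was 2.457e-04 against sham.

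The spread of Cd300lf rested on single libraries. Its 6 h mean was 39.3 ± 37.8 CPM, or 17.5 CPM with replicate 1 left out, and its 24 h mean was 46.5 ± 54.1 CPM, or 15.6 CPM with replicate 3 left out. At 72 h it was 26.2 ± 1.92 CPM. The change from 6 h to 24 h was 0.24 on the log2 scale (SE 0.75, edgeR adjusted p = 0.8438) and that from 24 h to 72 h was -0.82 (SE 0.76, edgeR adjusted p = 0.3963). Without those 2 libraries the latter was 0.75 (edgeR adjusted p = 0.07043), so its sign was not settled. Rab37, whose span holds Cd300lf on the other strand, had 18 to 47 counts in every library.

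The activating receptor Cd300lb stayed at the sham level for 1 h. Sham libraries held 0.556, 1.09 and 0.222 CPM (11, 21 and 5 counts), and the libraries at 10 min and 1 h lay between 0.498 and 0.838 CPM. The 6 h libraries held 9.06, 2.34 and 0.852 CPM, the 24 h libraries 5.96, 5.20 and 11.5 CPM, and the 72 h libraries 22.4, 24.1 and 23.5 CPM. At 6 h only replicate 3 overlapped sham, at 24 h every library lay above it, and the 72 h libraries stood above all others and close together. Cd300lb rose from 0.622 ± 0.437 CPM in sham to 23.4 ± 0.889 CPM at 72 h (log2 change of 5.25, SE of 0.69, edgeR adjusted p = 9.777e-06).

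Between the later times, Cd300lb rose from 24 h to 72 h by 1.64 (SE 0.53, edgeR adjusted p = 0.0177). That call was lost without replicate 1 at 24 h (1.5, edgeR adjusted p = 0.07286) or replicate 2 at 24 h (1.42, edgeR adjusted p = 0.06324). From 6 h to 24 h the change was 0.90 (SE 0.56, edgeR adjusted p = 0.2533), and 2.20 without replicate 1 at 6 h (edgeR adjusted p = 0.002159). The 6 h mean of 4.09 CPM was 1.60 CPM without that library. The processed pseudogene Gm11699, which lies within Cd300lb on the other strand, had 0 to 10 counts in the 18 libraries.

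Cd300ld, the other activating receptor, was present in all sham libraries, at 4.20, 3.32 and 4.84 CPM. The 10 min libraries held 5.23, 4.54 and 5.42 CPM and the 1 h libraries 3.72, 4.20 and 4.72 CPM, both overlapping sham. At 6 h the libraries held 17.2, 5.69 and 3.73 CPM, at 24 h 7.47, 9.44 and 14.5 CPM, and at 72 h 29.8, 25.1 and 29.0 CPM. The 6 h value again came from replicate 1, without which the mean of 8.86 ± 7.26 CPM was 4.71 CPM; replicate 3 lay among the sham libraries. Cd300ld rose from 4.12 ± 0.764 CPM in sham to 28.0 ± 2.47 CPM at 72 h (log2 change of 2.76, SE of 0.41, edgeR adjusted p = 2.832e-05), the smallest increase of the 4. It rose from 24 h to 72 h by 1.42 (SE 0.38, edgeR adjusted p = 0.005855). From 6 h to 24 h the change was 0.25 (SE 0.39, edgeR adjusted p = 0.6771), and 1.14 without replicate 1 at 6 h (edgeR adjusted p = 0.003102).

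Cd300lg went against the label of a myeloid receptor: it was high in sham and fell. Sham libraries held 148, 158 and 156 CPM, and the libraries at 10 min (123, 153 and 161 CPM), 1 h (126, 134 and 151 CPM) and 6 h (144, 153 and 193 CPM) overlapped them. At 24 h the libraries held 88.7, 94.9 and 84.1 CPM, and at 72 h 38.7, 33.4 and 29.7 CPM. Both late groups lay below every earlier library and did not overlap each other. The mean fell from 154 ± 5.06 CPM in sham to 89.2 ± 5.4 CPM at 24 h and 33.9 ± 4.55 CPM at 72 h, and the 72 h change was -2.18 (SE 0.13, edgeR adjusted p = 1.523e-10). The fall was -0.87 from 6 h to 24 h (SE 0.13, edgeR adjusted p = 1.106e-04) and -1.39 from 24 h to 72 h (SE 0.13, edgeR adjusted p = 7.705e-08). Scaling by library totals, which moved the median of all genes at 72 h from 0.03 to 0.61, left it at -1.60 (edgeR adjusted p = 3.745e-09).

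The contrasts of 6 h and 24 h with sham helped to choose the genes, and nothing is read from them here. At 6 h all libraries of Cd300a and Cd300lf lay above sham and the other 3 members overlapped it; 28.4% of all genes tested were called in that contrast (16.3% higher, 12.2% lower). At 24 h the libraries of Cd300a, Cd300lb, Cd300ld and Cd300lf all lay above sham and those of Cd300lg below; 43.8% of all genes were called there (23.7% higher, 20.2% lower). Between 6 h and 24 h 1 member was called, Cd300lg, which was lower, where 27.8% of genes were called (14.2% higher, 13.7% lower). Between 24 h and 72 h 4 members were called, where 50.5% of genes were (24.4% higher, 26.1% lower): Cd300a, Cd300lb and Cd300ld rose and Cd300lg fell. The plot of the changes between the later times gives these with their errors.

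**Figure D2:**
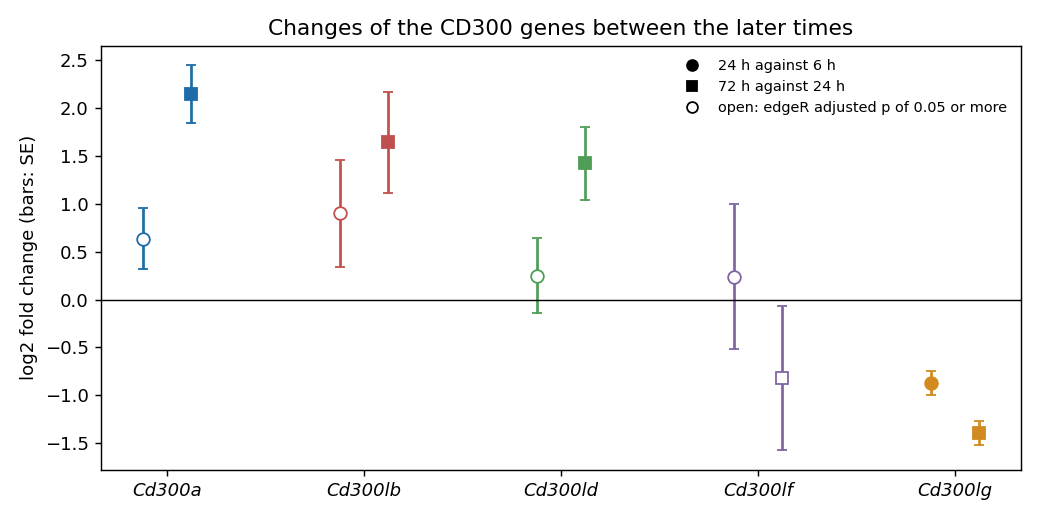
Log2 fold changes of each CD300 gene from 6 h to 24 h (circles) and from 24 h to 72 h (squares), with bars for the SE; filled symbols passed an edgeR adjusted p of 0.05. Cd300a (2.14), Cd300lb (1.64) and Cd300ld (1.42) rose after 24 h, Cd300lf (-0.82) has wide bars that reach near 0, and Cd300lg fell in both steps.

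Levels of different genes can be compared only per kilobase of gene length. In sham Cd300lg stood at 56.3 ± 1.85 CPM per kb, Cd300ld at 1.56 ± 0.289, Cd300a at 0.240 ± 0.0422, Cd300lb at 0.213 ± 0.15 and Cd300lf at 0.00336 ± 0.00582. Cd300lg thus made up 96.5% of the summed level of the 5 genes in sham, and 29.7% at 72 h. At 72 h the order was Cd300lg (12.4 ± 1.66 CPM per kb), Cd300ld (10.6 ± 0.934), Cd300lb (8.01 ± 0.305), Cd300a (5.77 ± 1.47) and Cd300lf (5.08 ± 0.373). Cd300lg and Cd300ld overlapped there, as did Cd300a and Cd300lf.

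The make-up of the 4 clustered genes changed with time. Their summed level was 2.01 ± 0.149 CPM per kb in sham and 29.4 ± 2.18 at 72 h. In sham Cd300ld held 76.9% of it (68.0% to 85.9% over libraries) and Cd300lf 0.182%. At 6 h Cd300lf held 55.4% (49.6% to 60.4%), a narrow range although its level differed several-fold between the 3 libraries. At 24 h its share was 42.7% on average, with 42.5%, 20.9% and 64.6% in replicates 1 to 3. At 72 h the sum was spread over Cd300ld (36.0%), Cd300lb (27.3%), Cd300a (19.4%) and Cd300lf (17.3%, 16.3% to 18.6%). The plot of shares by library shows the change from a sum held by Cd300ld to one held by Cd300lf and then by all 4.

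**Figure D3:**
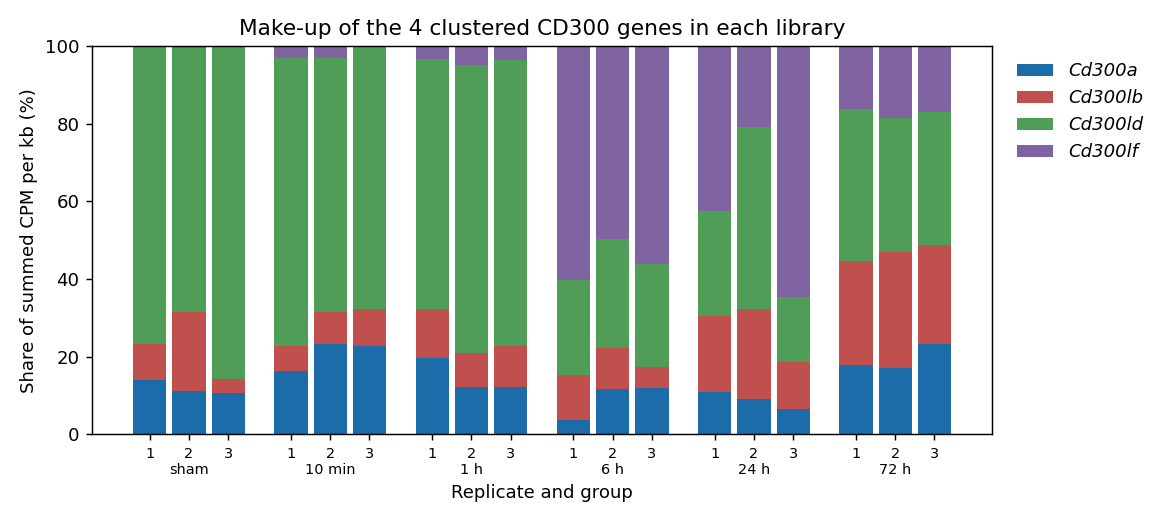
Share (%) of the summed CPM per kb of Cd300a, Cd300lb, Cd300ld and Cd300lf in each of the 18 libraries, by group and replicate number. Cd300ld holds 76.9% on average in sham, Cd300lf 55.4% at 6 h and 17.3% at 72 h.

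The cell type lists changed over the same times. Of the 16 neutrophil markers 12 were tested, and 12, 11 and 8 were called higher at 6, 24 and 72 h, with median log2 fold changes of 7.54, 6.78 and 4.20 (medians of all genes -0.01, 0.01 and 0.03). S100a8 and S100a9, which encode a granule protein pair, went from 0.574 and 1.05 CPM in sham to 126 and 165 CPM at 6 h, and Csf3r, the receptor of a neutrophil growth factor, from 0.855 to 23.6 CPM. Without replicate 1 at 6 h these means were 63.8, 80.0 and 13.3 CPM. With both that library and replicate 3 at 24 h left out, 11 of the 12 markers were called higher at 6 h (median 6.08) and 10 at 24 h (median 5.15). At 72 h the summed markers were 76.4 to 93.5 CPM, below all 6 h and 24 h libraries, while Cd300lf was at 24.1 CPM or more. Per 1000 CPM of these markers, Cd300lf stood at 59.2 ± 20.2 at 6 h, 81.4 ± 16.0 at 24 h and 302 ± 16.4 at 72 h. All 72 h libraries lay above the others on this ratio. Of the 16 markers, 5 to 8 were at 0 in the sham libraries, 2 in each 6 h library and 0 to 2 at 24 h and 72 h.

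Of 16 monocyte and macrophage markers, 7, 13 and 14 were called higher at the later times of 6, 24 and 72 h and 2, 1 and 2 lower, with medians of 0.52, 1.29 and 4.04. With replicate 1 at 6 h and replicate 3 at 24 h left out, 7 and 14 were higher and 3 and 0 lower at 6 h and 24 h (medians 0.44 and 1.31). At 72 h Lyve1 and Timd4, markers of resident macrophages, were the 2 lower ones (-1.09 and -1.23). Ccr2, the chemokine receptor of recruited monocytes, went from 2.13 CPM in sham to 100.2 CPM at 72 h, Ly6c2 from 0.378 to 6.69 CPM and Cd14 from 6.80 to 44.1 CPM. The summed markers were 349 to 407 CPM in sham, 396 to 664 at 6 h, 792 to 1103 at 24 h and 4199 to 5387 at 72 h, with 0 of 16 at 0 in any library. Per 1000 CPM of these markers, Cd300a stood at 3.04 ± 0.749 in sham, 7.56 ± 0.506 at 6 h, 6.69 ± 2.52 at 24 h and 5.68 ± 0.765 at 72 h. Cd300lb stood at 1.67 ± 1.17 in sham, 6.74 ± 6.09 at 6 h (libraries at 13.6, 4.40 and 2.15), 8.13 ± 2.06 at 24 h and 4.96 ± 0.714 at 72 h. Its 72 h libraries lay above sham and below all 24 h libraries, and within the range at 6 h. Cd300ld stood at 10.9 ± 1.85 in sham, 15.3 ± 9.15 at 6 h (libraries at 25.9, 10.7 and 9.43), 11.4 ± 1.88 at 24 h and 5.89 ± 0.475 at 72 h. From sham to 72 h it rose by less than the marker sum did. Cd300lf stood at 0.0456 ± 0.079 in sham, 66.9 ± 50.3 at 6 h, 45.8 ± 46.4 at 24 h and 5.53 ± 0.688 at 72 h. Its 72 h libraries lay below all 6 h and 24 h libraries on this ratio, and above them on the ratio to the neutrophil markers.

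The endothelial and cardiomyocyte markers were mostly lower at 72 h, as Cd300lg was, but the endothelial lists differed from it earlier. At 6 h 6 of 10 capillary markers were called higher and 1 lower (median 0.74), and 6 of 14 vascular markers higher and 2 lower (0.31). Cd300lg had a log2 change of 0.08 there. At 24 h 0 capillary markers were higher and 2 lower, and 1 vascular marker was higher and 4 lower. With replicate 1 at 6 h and replicate 3 at 24 h left out, the vascular counts were 4 and 2, then 1 and 6. Of 10 capillary endothelial markers, 9 were called lower at 72 h and 0 higher (median -1.41), among them Gpihbp1 (-1.09), Car4 (-2.84) and Rgcc (-1.91). Of 14 vascular endothelial markers 12 were lower and 1 higher (median -0.58), with Pecam1 at -0.16 (edgeR adjusted p = 0.2543), Cdh5 at -0.47 and Kdr at -1.22. The summed capillary markers were 3328 to 3594 CPM in sham, 4882 to 5466 at 6 h, 2385 to 3156 at 24 h and 1208 to 1407 at 72 h. Cd300lg fell further than either sum: per 1000 CPM of the capillary markers it stood at 45.2 ± 1.54 in sham, 31.8 ± 3.35 at 6 h, 33.8 ± 5.84 at 24 h and 25.8 ± 1.53 at 72 h. Per 1000 CPM of the vascular markers it stood at 72.9 ± 2.83 in sham and 25.8 ± 3.74 at 72 h. No ratio of a 72 h library overlapped sham. Most of the capillary sum came from Cd36, Aqp1 and Fabp4 (1316, 857 and 684 CPM in sham). Single capillary markers differed from it. From sham to 72 h Timp4 (78.0 to 5.52 CPM), Car4 (24.5 to 3.42 CPM) and Aqp1 (857 to 137 CPM) fell by more than Cd300lg did. The others fell by less, or rose (Aplnr, 47.9 to 72.8 CPM). The cardiomyocyte markers had a median log2 change of -0.83 at 24 h and -1.84 at 72 h against sham, the capillary markers one of -0.28 and -1.41, and Cd300lg one of -0.79 and -2.18. The part of either cell type in the fall of Cd300lg was not tested. The plot of members against markers sets these side by side.

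**Figure D4:**
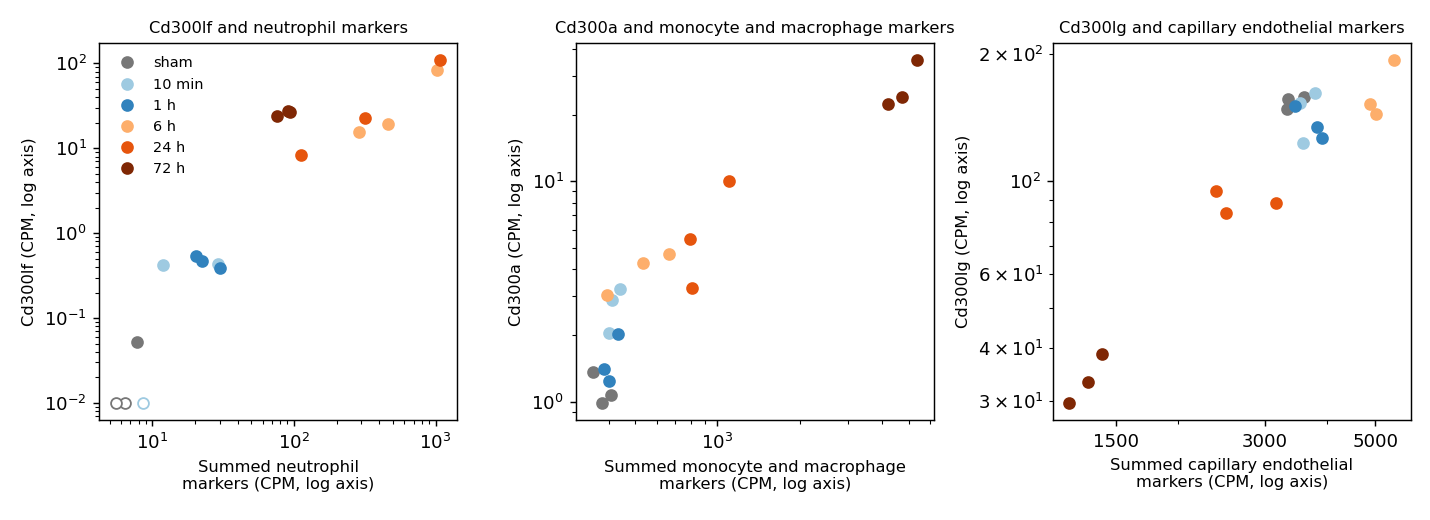
Level of a CD300 gene against the summed CPM of a marker list in each of 18 libraries (log axes), coloured by group; open circles are libraries with 0 counts, drawn at the foot of the axis. Cd300lf follows the neutrophil markers up to 108 CPM and stays at 24.1 to 27.8 CPM at 72 h, where those markers are lower, and Cd300a and Cd300lg lie highest and lowest at 72 h, with their marker lists.

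The other lists were read at 72 h only. Of 8 dendritic cell markers 6 were called higher and 2 lower, and of 8 mast cell markers 5 were tested and 0 called. Of 7 eosinophil markers 2 were tested and 2 were higher, at a summed level of 3.22 to 4.04 CPM. The tested marker Siglecf had 0 counts in sham, 6 to 21 at 24 h and 59 to 87 at 72 h. It passed the filter on low counts through the 72 h group, so the eosinophil count is a description only. Of 10 lymphocyte markers 6 were tested and 5 were higher, at 10.5 to 12.3 CPM. Of 8 cardiomyocyte markers 8 were lower, the sum going from 57855 to 63032 CPM in sham to 15218 to 20056 CPM, and of 7 fibroblast markers 6 were higher and 1 lower. The libraries thus held RNA of many cell types beside the cardiomyocytes that the labels name, and the part of each in the CD300 levels was not tested.

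The signalling partners of the receptors rose with them. Of 14 listed genes, 11, 12 and 12 were called higher at these times, and 0, 0 and 1 lower, with medians of 1.29, 2.0 and 2.70. With replicate 1 at 6 h and replicate 3 at 24 h left out, 9 and 12 were called higher at 6 h and 24 h (medians 0.84 and 1.85), and 0 lower. Tyrobp, the adaptor of Cd300lb, held 7.84, 10.3 and 8.0 CPM in sham, 38.3, 19.8 and 11.7 CPM at 6 h and 148, 133 and 175 CPM at 72 h, with a log2 fold change of 4.13 at 72 h (SE 0.43, edgeR adjusted p = 1.09e-06). Fcer1g, the adaptor of Cd300ld, went from 8.03 ± 1.56 CPM in sham to 123 ± 6.15 CPM at 72 h (3.93, SE 0.30, edgeR adjusted p = 1.914e-08), and Hcst, an adaptor that binds a lipid kinase, from 0.249 ± 0.111 to 1.65 ± 0.186 CPM. At 6 h the 3 libraries of both Tyrobp and Fcer1g all lay above sham, where Cd300lb and Cd300ld each had 1 library among the sham values.

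The phosphatases that inhibitory receptors recruit did not move alike. Ptpn6 rose from 5.68 ± 0.700 CPM in sham to 66.8 ± 3.29 CPM at 72 h (3.55, SE 0.31, edgeR adjusted p = 9.268e-08), and the lipid phosphatase Inpp5d from 9.74 ± 0.368 to 62.7 ± 2.86 CPM (2.69). Ptpn11, a phosphatase made in most cell types, held 227, 261 and 238 CPM in sham, 363, 416 and 336 CPM at 6 h and 167, 176 and 160 CPM at 72 h. It was higher at 6 h (0.62, edgeR adjusted p = 0.006052) and lower at 72 h (-0.53, SE 0.15, edgeR adjusted p = 0.005598). Fgr, a Src-family kinase of myeloid cells (6.28), and Vav1, an exchange factor of blood cells (4.31), had the largest increases of the list at 72 h, and the adaptor Grb2 was not called (0.12, edgeR adjusted p = 0.2268).

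**Figure D5:**
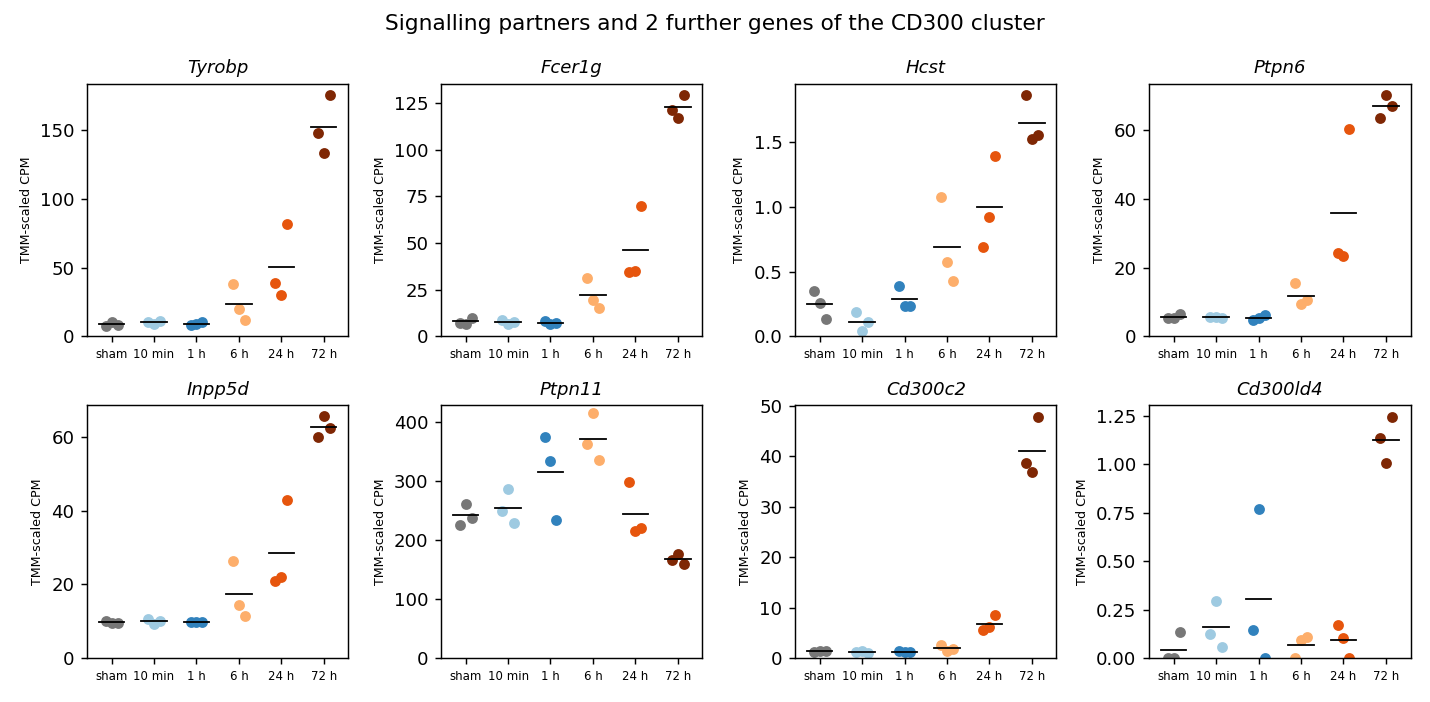
TMM-scaled CPM of 6 signalling partners and of Cd300c2 and Cd300ld4 in each library, by group, with lines for the mean of 3 libraries. All but Ptpn11 were highest at 72 h, Tyrobp at 152 CPM on average, and Ptpn11 was highest at 6 h (372 CPM) and lowest at 72 h (168 CPM).

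Among the other CD300 genes and relatives, 10 of 11 listed names were in the table, Cd300lh being an older symbol of the listed Cd300ld3. Of these 3 passed the filter on low counts, and 2 were called higher at 72 h (median 4.39). Cd300c2, an activating member, held 1.21, 1.5 and 1.38 CPM in sham, 5.57, 6.23 and 8.61 CPM at 24 h and 38.6, 37.0 and 47.8 CPM at 72 h. Its groups at 24 h and 72 h lay above all earlier libraries and did not overlap each other (log2 change of 4.91 at 72 h against sham, SE of 0.21, edgeR adjusted p = 5.035e-12). At 6 h it had not been called (0.49, SE 0.24, edgeR adjusted p = 0.1391). Cd300ld4 had 0, 0 and 3 counts in sham and 36, 33 and 39 counts at 72 h (4.39, SE 0.94, edgeR adjusted p = 4.643e-04). No earlier library held more than 13 counts of it, so it passed the filter only through the 72 h group. Its call, and its place in the count of 2 above, is therefore a description only. Fcmr, a receptor of IgM, was tested and not called at any time, with 3 to 17 counts. Cd300e had at most 20 counts in a library, Cd300c 7, Cd300ld2 12, Cd300ld3 18, Cd300ld5 7, Pigr 1 and Fcamr 2, and these 7 were not tested.

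Related genes can share reads, and how such reads were counted is not given in the sources used here. In the GENCODE transcripts, Cd300a and Cd300c2 share a stretch of up to 140 bases, which holds 1.9% of the 50-base windows of Cd300a. Cd300ld and Cd300lf share up to 134 bases, 3.66% of the windows of Cd300ld and 1.8% of those of Cd300lf. For Cd300lb the longest shared stretch was 17 bases and for Cd300lg 15.

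Other paired receptors of myeloid cells were higher at the same times. Of 27 listed genes 26 were tested, and 16, 25 and 24 were called higher at the later times of 6, 24 and 72 h and 0 lower, with medians of 2.03, 3.04 and 4.02. With the same 2 libraries left out, 16 and 24 were higher and 2 and 0 lower at 6 h and 24 h (medians 1.59 and 2.38). The largest fitted increases at 72 h were Sirpb1c, with 0 counts in sham and 212 to 263 counts at 72 h, and Cd200r4, with 0 to 1 counts in sham and 109 to 160 counts at 72 h; both encode activating receptors.

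By Pearson's r of log2 CPM over the 18 libraries, the genes most like each member were named as a description. For Cd300a they were Fbxo33, Nsun7 and Tnfaip8l2 (r of 0.97 each), for Cd300lb Alcam, Tlr13 and Tyrobp (0.98 each), and for Cd300ld Il10ra (0.98), Rab8b and Pik3ap1 (0.97 each). For Cd300lf they were Slfn4, Csf3r and Eif1a (0.98 each), and for Cd300lg Ndufa9, Aldh4a1 and Ech1 (0.98 each). The libraries share 1 time course, and 311 to 1150 genes reached an r over 0.9 with each member. Among the members themselves, Cd300lb and Cd300ld had an r of 0.93, Cd300a and Cd300ld 0.92, and Cd300a and Cd300lb 0.91. Cd300lf had an r of 0.84 with Cd300lb, 0.76 with Cd300a and 0.73 with Cd300ld. Cd300lg had an r of -0.88 with Cd300a, -0.87 with Cd300ld, -0.84 with Cd300lb and -0.54 with Cd300lf. By ranks (Spearman's rho) pairs without Cd300lg had 0.73 to 0.88, and pairs with it -0.70 to -0.59.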

How the data were processed

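Poly(A)-selected RNA of 18 mice was sequenced, 1 library per mouse. Per the submitters' processing notes, the authors used cutadapt 1.18, HISAT2 2.1.0, featureCounts and build mm10; their roles, settings and any use of strand are not given in the sources used here. The authors deposited whole-number read counts per Ensembl gene for 30583 genes, and FPKM values, which are the same counts divided by gene length and library total. At 6 h, replicates 2 and 3 have their FPKM columns exchanged, which leaves their group the same. Symbols, coordinates and lengths come from GENCODE M21 (30489 IDs matched, 94 did not).

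Counts were tested with edgeR 4.0.16 under R 4.3.3: filterByExpr left 16311 genes, TMM set the scale, and 1 robust quasi-likelihood fit covered the 18 libraries and 6 group means (biological coefficient of variation 0.149). Contrasts were tested two-sided with Benjamini-Hochberg adjustment over all genes tested, and steps were tested on simulated data. Ratios of pooled counts carry exact 95% intervals for counting error only. Counts were summed over the mice of a group, so these intervals leave out the spread between mice. No molecular identifiers are described.

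The members and gene lists were chosen with earlier results of these data known. Named genes were the 5 members, every detected gene of the other CD300 genes, 6 fixed signalling partners, the 2 largest increases and the 2 largest decreases of each other pathway list at 72 h, the first 3 genes of each cell type list, the 3 genes most like each member, and genes that overlap one. Of the cell type lists, genes of those that bear on a member are named. Grb2, Siglecf, Lyve1, Timd4, Timp4, Aqp1, Cd36, Fabp4 and Aplnr were named after their values were seen.

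Alternatives were DESeq2 1.42.0, RLE scaling, library totals, no filter, at least 10 counts in every library, the 6 libraries compared alone, a replicate block, leaving out each library in turn, and limma 3.58.1 on log2 of FPKM plus 1 or plus 0.1. Leaving out replicate 1 at 6 h and replicate 3 at 24 h together was chosen after seeing the data.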

Additional observations from a re-analysis of the deposited data

How the results depend on the processing

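Over 529 refits of single members, 508 stayed on the same side of the threshold, 9 lost a call and 12 gained one. Among members called in the model reported, 0 reversed. Changes of direction were not counted for members that were not called, such as Cd300lf from 24 h to 72 h, whose sign did change. All 73 refits of the contrast of 72 h with sham kept both direction and call. The number of members called between 6 h and 24 h, 1 in the model reported, was 2 with library totals, 2 by limma on log2(FPKM + 1), 2 on log2(FPKM + 0.1), 3 with replicate 1 at 6 h and replicate 3 at 24 h both left out, and 1 to 3 with 1 library left out (3 if it was replicate 1 of the 6 h group, 2 if it was replicate 2 of the 24 h group). Of all genes, 4541 of 16311 were called in the model reported (50.9% higher), 6880 with library totals (88.0% higher), 6475 and 6757 by limma on the 2 FPKM scales, and 3653 of 16678 with both libraries left out. Without replicate 1 at 6 h 4064 of 16738 genes were called, and without replicate 2 at 24 h 3607 of 16721. The counts for 6 h and 24 h against sham only describe members chosen with those contrasts known. With at least 10 counts in every library, 1, 3 and 3 members were called at 6 h, 24 h and 72 h against sham, in place of 3, 5 and 5, since that filter removed Cd300lb and Cd300lf. Of all genes, 4168, 6256 and 9016 of 12937 were called under that filter, in place of 4639, 7149 and 10831 of 16311. Limma on log2(FPKM + 1) called 1 member at 6 h, and 4123 of 16311 genes. With 1 library left out, 2 to 4 members were called at 6 h. It was 2 without replicate 1 of the 6 h group (2926 of 16738 genes) or replicate 3 of sham (3408 of 16714). It was 4 without replicate 2 or replicate 3 of the 6 h group (4655 of 16724 and 4371 of 16758 genes). With only the 6 libraries compared, 1 was called at 10 min, in place of 0, and 360 of 14510 genes in place of 12 of 16311. Other counts stayed within 1.5 times.

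Same-numbered libraries of different groups did not deviate together: 4 of 45 pairs had a correlation over 0.1 (median 0.035, and -0.013 for pairs of different number). The numbers are therefore not treated as a pairing. With a replicate block the counts of members called were 0, 0, 3, 5 and 5 against sham in time order, 1 from 6 h to 24 h and 4 from 24 h to 72 h, and no member's call changed. Of all 16311 genes, 14, 43, 4540, 7091 and 10784 were called against sham in that fit, 4451 from 6 h to 24 h and 8147 from 24 h to 72 h.

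Under scaling by library totals the all-gene median of the log2 fold change was -0.12, 0.20 and 0.61 at 6 h, 24 h and 72 h, and 40.6%, 75.5% and 79.9% of called genes were higher. Depth limits the early values most: Cd300lf had at most 10 counts in any library up to 1 h, and Cd300lb at most 21.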
